A study of Mus musculus with 4 samples.

Results

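The 38 genes described here encode 19 cadherins and 19 integrin subunits, out of 21887 protein-coding mouse genes placed on chromosomes in the gene table. They were taken from a fixed list. A gene was credited with every Isl1 peak whose midpoint lay in the gene or within 100 kb of it, and peaks of both replicates that overlapped by at least 1 bp were merged into a shared region. By that rule 41 of the 6834 shared regions lay at these genes, with 56 of 8860 peaks in replicate 1 and 54 of 10162 peaks in replicate 2. The study mapped Isl1, a LIM-homeodomain transcription factor, by chromatin immunoprecipitation and sequencing (ChIP-seq) in genital tubercles, the embryonic outgrowths that form the penis or clitoris. Chromatin came from wildtype CD1 mouse embryos at E14.5, E standing for embryonic day, with 2 Isl1 ChIP replicates made with a rabbit monoclonal anti-ISL1 antibody and 2 input DNA samples that were not analysed here. The labels do not say whether the replicates came from separate litters or pools. ChIP of whole tubercles carries no information on which cell type held a bound site, and no expression was measured, so the tissue label could not be set against marker genes.

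Cadherins are calcium-dependent adhesion proteins that join like cells to each other. The type I and type II members are tied to the actin skeleton through catenins, and the atypical members differ in their anchoring or intracellular part. Integrins are receptors made of an alpha and a beta chain that hold cells to laminin, collagen, fibronectin and other matrix proteins. In an outgrowth such as the tubercle, cadherins of mesenchyme and of epithelium keep tissue layers apart, and integrins bind both layers to the basement membrane between them. A peak near a gene is a place of Isl1 signal in chromatin and does not by itself show that Isl1 acts on that gene.

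At least 1 shared region lay at 21 of the 38 genes (55.3%, Wilson 95% interval 39.7 to 69.9%), against 38.1% of all protein-coding genes. A replicate 1 peak lay at 25 of them, against 44.5% of all genes, and a replicate 2 peak at 23, against 45.5%. The families were alike in the share with a shared region, with 11 of 19 cadherin genes and 10 of 19 integrin genes. Gene length moved with the share. All 38 genes were longer than the median protein-coding gene (17.2 kb), and their own median length was 113 kb. Among the 20 members of at least 100 kb, 12 (60%) had a shared region, beside a similar 58.6% of all genes of that length. Among the 18 shorter members, 9 (50%) had one, beside 35.6% of all shorter genes. The median length of these 18 was 44.5 kb, and length was not matched within the shorter class. The 2 shares therefore differ in gene length as well. A shared region lay inside the gene itself at 14 of the 38, against 8.32% of all protein-coding genes, and 12 of these 14 were among the 20 long members, where 39.4% of all genes of that length held one. No test was run on these shares, since the genes were listed with earlier results of the same data known.

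**Figure D1:**
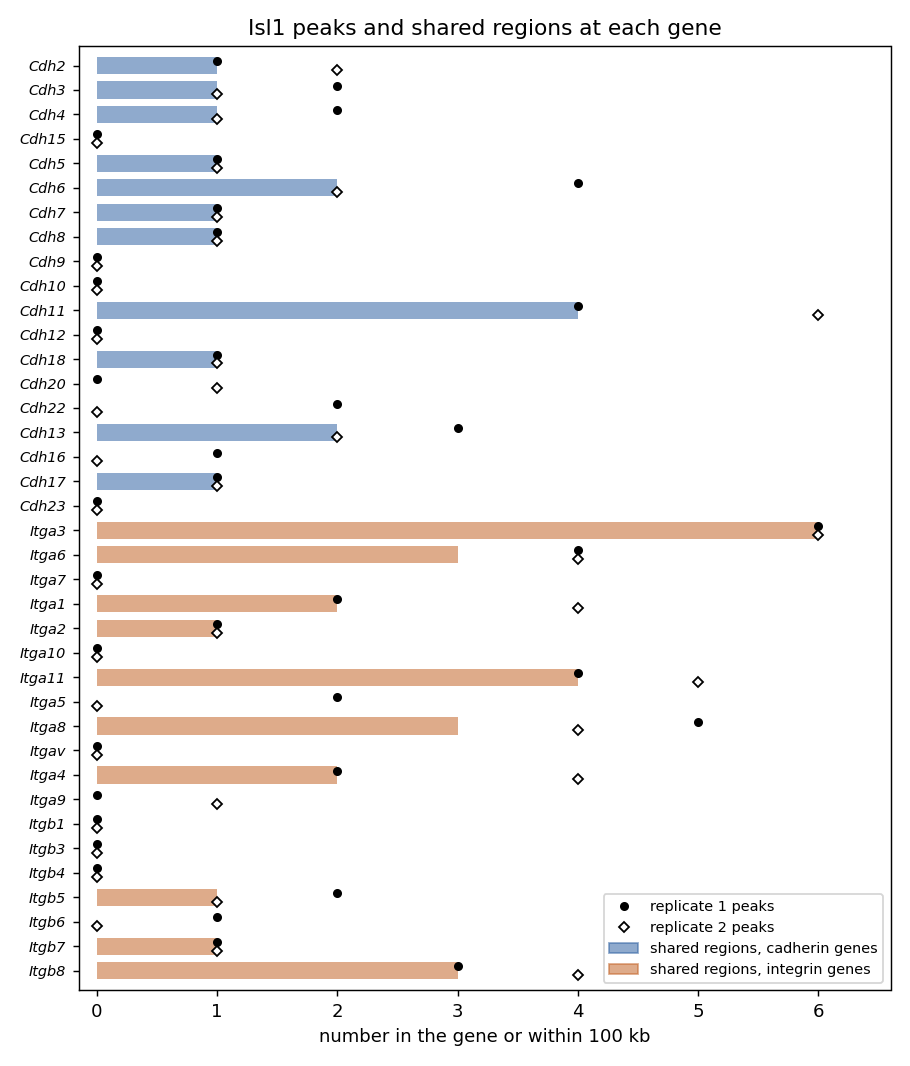
Number of Isl1 peaks in replicate 1 (black circles) and replicate 2 (white diamonds), and of shared regions (bars), in each gene or within 100 kb of it. Itga3 had 6 shared regions, Cdh11 and Itga11 had 4 each, and 17 genes had none.

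The families differed in how densely the regions lay. The windows of the cadherin genes covered 9.86 Mb and held 16 shared regions, or 1.62 per Mb (exact Poisson 95% interval 0.928 to 2.64). The windows of the integrin genes covered 5.28 Mb and held 25, or 4.74 per Mb (3.07 to 6.99). Over the windows of all protein-coding genes the density was 2.65 per Mb, so that cadherin genes stood at 0.611 times and integrin genes at 1.78 times that value. Both families together stood at 1.02 times that value. The order was the same within the long genes. Cadherin genes of at least 100 kb had 1.5 regions per Mb (0.799 to 2.56), integrin genes of that length had 4.58 (2.2 to 8.42), and all genes of that length had 3.10. Below 100 kb the 5 cadherin genes had 2.52 per Mb (0.520 to 7.37) and the 13 integrin genes 4.90 (2.80 to 7.95), with 2.42 over all shorter genes. The integrin value rests in part on the window of Itga3, which takes in start sites of neighbouring genes. Itga3 is 32.4 kb long and had 6 of the 16 regions at the shorter integrin genes, so the 4.90 rests on it too. Without that gene, a choice made after its values were seen, integrin genes of all lengths had 3.77 per Mb (2.27 to 5.88), or 1.42 times the value of all genes. The shorter integrin genes were not recounted without it. The intervals cover counting error alone, and regions within a window are not independent.

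**Figure D2:**
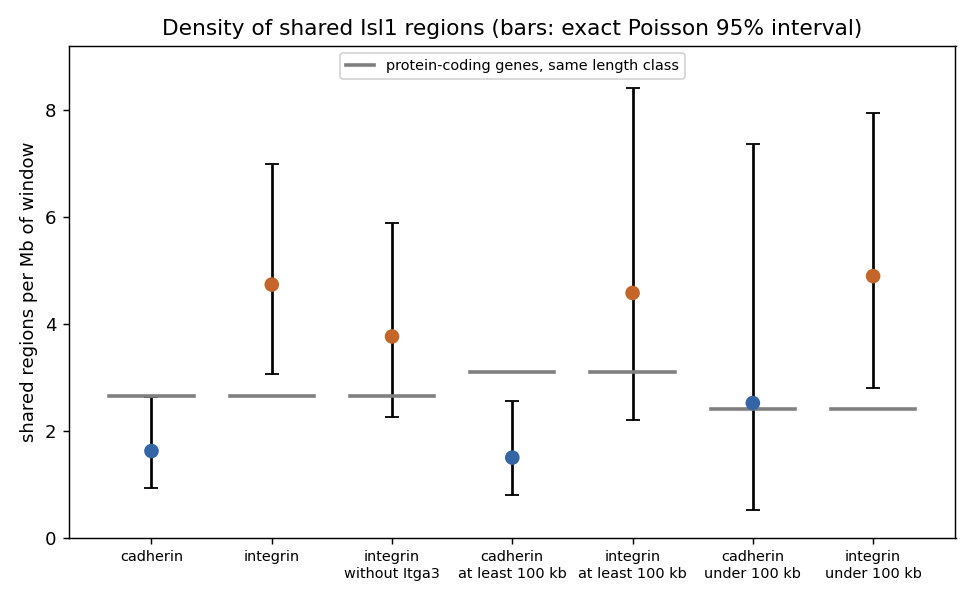
Shared Isl1 regions per Mb of gene window (gene plus 100 kb on each side) for cadherin (blue) and integrin (orange) genes, with exact Poisson 95% intervals. Grey lines give the density over all protein-coding genes, or over those of the same length class for the 4 points on the right. Integrin genes lay at 4.74 and cadherin genes at 1.62 per Mb, on either side of 2.65.

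The position of the regions also differed between the families. Of the 16 regions at cadherin genes, 11 (68.8%) lay inside a cadherin gene, where the gene bodies made up 61.5% of the windows. Of the 25 at integrin genes, 7 (28.0%) lay inside, where the bodies made up 31.3%. Each share was near the share of the windows taken by gene bodies. Over all protein-coding genes 57.7% of the regions in windows lay inside a gene, where gene bodies made up 54.1% of the windows. That share counts regions inside any protein-coding gene, while the family shares count those inside listed genes only, so they are not directly comparable.

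Among the type I cadherins, which carry most of the adhesion between like cells, 3 of 4 genes had a shared region, 1 each, and all of these lay inside the gene. The region in Cdh2, which encodes N-cadherin of mesenchyme and neural tissue, lay at chr18:16649914-16650211 with a score of 113 in replicate 1 and 43 in replicate 2. The score is the authors' own value for each peak, with no formula stated in the labels. The score of 113 was higher than or equal to 62.4% of the scores in its list, and the 43 to 6.86% in the other. Replicate 2 held a further peak inside Cdh2 with a score of 51. The region in Cdh3, the gene of the epithelial P-cadherin, had scores of 186 and 148 (chr8:106548445-106548770), and replicate 1 held a further peak 2.96 kb outside the gene with a score of 76. The region in Cdh4, which encodes R-cadherin, had scores of 115 and 184 and joined 2 peaks of replicate 1 with 1 of replicate 2 (chr2:179687311-179687743). Cdh15, the cadherin of skeletal muscle precursors, had no peak in either list, and its nearest shared region was 187 kb away.

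Of the 11 type II cadherin genes, 6 had a shared region. Cdh11, which encodes the cadherin of loose mesenchyme and bone-forming cells, had the most, with 4 shared regions from 4 peaks in replicate 1 and 6 in replicate 2. The region inside Cdh11 lay 15.5 kb from its upper end (chr8:102769786-102770172) and scored 99 in replicate 1 and 196 in replicate 2. A pair of regions 3.22 kb apart lay 81.5 and 78.3 kb below the lower end of Cdh11. The outer scored 93 in replicate 1 and 154 in replicate 2 (chr8:102550527-102550712), and the inner 31 and 156 (chr8:102553664-102553948). The fourth lay 64.3 kb above the upper end with scores of 26 and 57. Each of the 4 scored higher in replicate 2, and Cdh11 was the nearest protein-coding gene to all of them. With 11 shared regions within 500 kb, Cdh11 also had the most crowded surroundings of the 38 genes.

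Cdh6, a cadherin gene first studied in kidney, held 2 shared regions and had 4 peaks in replicate 1 and 2 in replicate 2. The region with scores of 110 and 186 (chr15:13174757-13174930) lay 1.17 kb upstream of the start site that RefSeq lists for Cdh6 and still inside the annotated gene, 1.56 kb from its upper end. Among all regions at these 38 genes it was the one closest to a listed start site of its own gene. The second, with scores of 52 and 117, lay 55.3 kb downstream of that start. Replicate 1 alone added peaks with scores of 58 inside the gene and 93 just beyond its upper end.

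Cdh7, Cdh8 and Cdh18, known mostly from the nervous system, had 1 region each, all inside the gene. Their scores in replicates 1 and 2 were 121 and 180 at Cdh7 (chr1:110078953-110079201), 207 and 164 at Cdh8 (chr8:99166930-99167294) and 147 and 67 at Cdh18 (chr15:22944086-22944265). The single region of Cdh18 lies in a gene of 929 kb. Cdh5, which encodes the VE-cadherin of endothelium, had 1 region 78.7 kb below its lower end, with scores of 40 and 109 (chr8:104022786-104023010). Cdh9, Cdh10 and Cdh12 had no peak in either list, although Cdh12 is 1150 kb long, and the nearest shared regions lay 1028, 290 and 1346 kb away. Cdh20 had 1 peak in replicate 2 alone (score 82), and Cdh22 had 2 in replicate 1 alone (scores 148 and 101), so neither had a shared region.

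Among the atypical cadherins, Cdh13 encodes T-cadherin, which is held in the membrane by a lipid anchor. It held 2 shared regions, 438 kb apart in a gene of 1185 kb. The stronger scored 197 in replicate 1 and 215 in replicate 2 (chr8:119025181-119025444), and the other scored 105 and 118 (chr8:118586830-118587245). At both, the scores of the replicates lay close together. Cdh17, the cadherin of liver and intestine, had 1 region 43.7 kb beyond its upper end (scores 147 and 109). Cdh16, a kidney cadherin gene, had 1 peak of replicate 1 alone with a score of 90, and Cdh23, whose product forms the tip links of hair cells, had none.

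**Figure D3:**
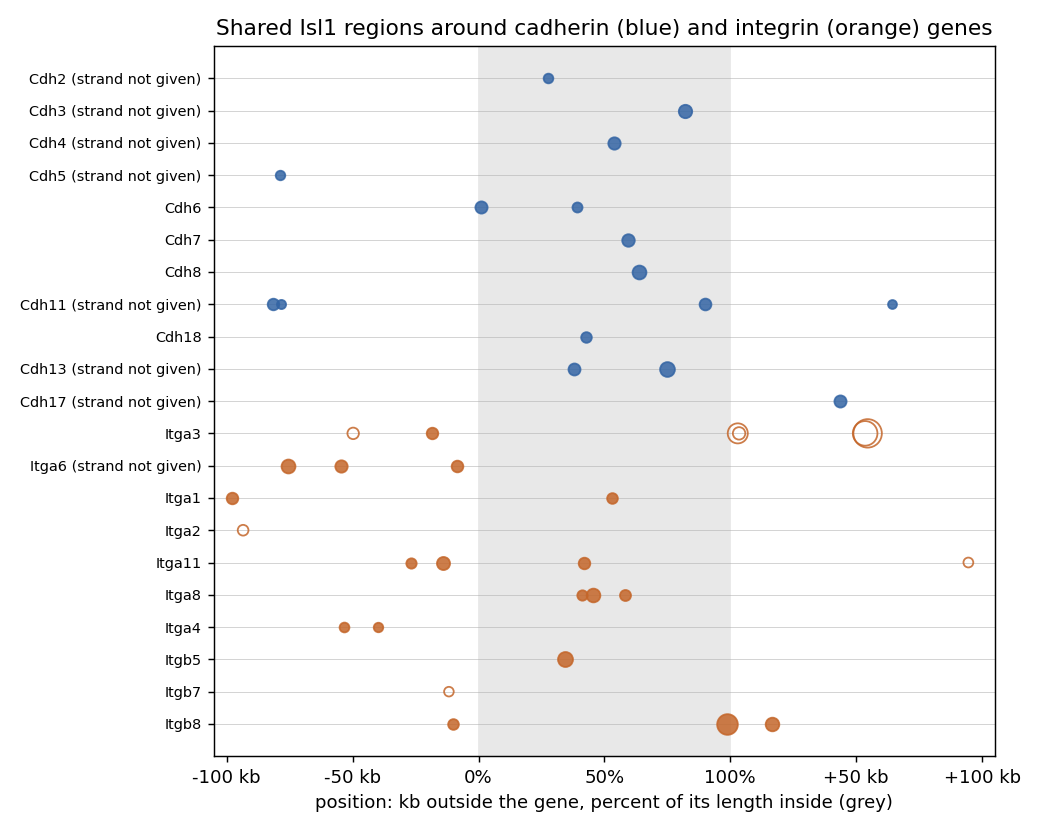
Position of each shared region around the 21 genes that had one. Grey marks the gene from 0 to 100% of its length, with kb outside it on both sides. Genes run from start to end where a RefSeq start window was available, and otherwise in genome order (strand not given). Circle area grows with the lower of the 2 scores, and open circles are regions that lay in or nearer to another gene. Of the 6 regions at Itga3, 5 are open.

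Integrin alpha chains set which matrix protein a receptor binds. Of the 3 laminin receptors, Itga3 and Itga6 had shared regions outside the gene, and Itga7, the muscle form, had none. Itga3 had 6 regions, the most of all 38 genes, and 6 peaks in each replicate. The pair with the highest scores lay near the neighbouring gene Ppp1r9b, which encodes the phosphatase-binding scaffold spinophilin, with 921 in replicate 1 and 1045 in replicate 2 (chr11:94989794-94990065) and with 952 and 671 (chr11:94990824-94991022), 54.5 and 53.6 kb from Itga3. Another pair lay in or nearest to Pdk2, a kinase gene of pyruvate metabolism, 2.97 and 3.49 kb below the lower end of Itga3. Their scores were 422 and 458 (chr11:95041299-95041787) and 130 and 118 (chr11:95040878-95041094). A region nearest to the homeobox gene Dlx3 scored 90 and 118. The remaining region, 18.6 kb upstream of the start site of Itga3, was the only region of the 6 nearest to Itga3 itself, with scores of 92 and 109 (chr11:95095295-95095459). The 4 regions near Ppp1r9b and Pdk2 lay within 1.28 kb of listed starts of those genes.

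These 3 start windows, each of 300 bases (250 before and 50 after a listed start), were the only ones in the RefSeq table (build GRCm38.p6, the coordinates of mm10) that overlapped a shared region at any of the 38 genes. They are printed 5′ to 3′ on the strand of the gene to show the sequence under those regions. Capitals mark the bases covered by peaks of both replicates.
Ppp1r9b chr11:94990962-94991261 (plus strand): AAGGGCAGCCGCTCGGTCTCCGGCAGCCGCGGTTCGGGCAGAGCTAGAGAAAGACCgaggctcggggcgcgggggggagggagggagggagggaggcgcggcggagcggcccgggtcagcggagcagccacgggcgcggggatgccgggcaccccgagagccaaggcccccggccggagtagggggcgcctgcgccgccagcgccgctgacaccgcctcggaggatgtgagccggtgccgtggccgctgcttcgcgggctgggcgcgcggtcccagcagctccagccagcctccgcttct
Pdk2 chr11:95040826-95041125 (minus strand): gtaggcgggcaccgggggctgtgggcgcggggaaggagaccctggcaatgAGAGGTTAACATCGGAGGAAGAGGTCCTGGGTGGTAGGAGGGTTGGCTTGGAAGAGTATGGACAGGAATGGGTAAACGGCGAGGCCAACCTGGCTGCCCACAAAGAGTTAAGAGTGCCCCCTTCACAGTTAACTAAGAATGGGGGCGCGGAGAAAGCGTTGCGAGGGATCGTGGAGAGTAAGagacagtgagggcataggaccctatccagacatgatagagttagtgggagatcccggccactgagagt
Pdk2 chr11:95041322-95041621 (minus strand): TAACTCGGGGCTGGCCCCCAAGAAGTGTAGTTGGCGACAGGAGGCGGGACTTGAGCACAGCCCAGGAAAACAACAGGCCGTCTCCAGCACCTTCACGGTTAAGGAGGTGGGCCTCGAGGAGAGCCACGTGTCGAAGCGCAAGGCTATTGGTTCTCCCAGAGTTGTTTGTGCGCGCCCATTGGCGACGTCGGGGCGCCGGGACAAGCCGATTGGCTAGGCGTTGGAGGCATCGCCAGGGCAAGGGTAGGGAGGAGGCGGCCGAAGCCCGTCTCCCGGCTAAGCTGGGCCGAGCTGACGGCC
All 300 bases of the last window lay under peaks of both replicates, and 182 bases of the other Pdk2 window and 56 of the Ppp1r9b window did. Their G and C content was 64.7% for the last, 57.7% for the other Pdk2 window and 77.3% for Ppp1r9b, where the median over all 32851 windows was 52.7%. Sequences that hold the TAAT core common at homeodomain sites were searched on both strands. The letters TAATTA were in none of the 3 windows, where 5.29% of all windows held them. The same held for TAATTG, found in 8.0% of all windows, for TAATGG, found in 7.73%, and for CTAATG, found in 7.36%. The AP-1 letters TGANTCA, found in 7.81%, and the GC box letters GGGCGG, found in 35.7%, were also in none of the 3. The E-box letters CANNTG occurred once, as CACGTG at base 125 of the last window, and were present in 72.3% of all windows. A single stretch of sequence can match more than 1 of these overlapping TAAT motifs.

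Start windows of their own were available for 26 of the 38 genes, and these carried no peak. The other genes, Cdh2, Cdh3, Cdh11, Cdh13 and Itga6 among them, had no window in the RefSeq set used, so their starts were not examined. Of the 30 windows, 0 overlapped a peak of either replicate. Over all windows 3.31% overlapped a replicate 1 peak and 3.21% a replicate 2 peak, and with 30 windows a count of 0 is near those shares. CTAATG occurred in 5 of the 30 windows (16.7%, against 7.36% of all windows) and TAATTA in 1 (3.33%, against 5.29%). TAATTG and TAATGG occurred in 2 each (6.67%, against 8.0% and 7.73%). CANNTG occurred in 24 (80%, against 72.3%), GGGCGG in 12 (40%, against 35.7%) and TGANTCA in 2 (6.67%, against 7.81%). None of these shares was tested.

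Itga6, whose product anchors epithelium to laminin, had 3 shared regions, all below its lower end and all nearest to it. They lay 8.40, 54.7 and 75.7 kb away. The scores in replicates 1 and 2 were 96 and 160 at the closest (chr2:71778282-71778572), 115 and 228 at the next (chr2:71732002-71732378) and 165 and 397 at the farthest (chr2:71710953-71711449). Replicate 2 scored higher at each, and the score was larger with distance in both replicates. Each list added 1 peak of its own, with a score of 53 in replicate 1 and 131 in replicate 2.

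Of the 4 collagen receptor genes, 3 had a shared region. Itga11, the collagen receptor of mesenchyme and fibroblasts, had 4, from 4 peaks in replicate 1 and 5 in replicate 2. Regions lay 14.2 and 26.9 kb upstream of its start site, with scores of 138 and 272 (chr9:62663487-62663772) and of 59 and 131 (chr9:62650840-62651176). Another lay inside Itga11, where replicate 1 gave 93 and replicate 2 gave 146 (chr9:62722038-62722182). The fourth, with scores of 59 and 47, lay 94.6 kb away, in or nearest to Pias1. Itga1 and its neighbour Itga2 lie next to each other and shared a region, inside Itga1 and 93.5 kb from Itga2, with scores of 69 and 146 (chr13:115025531-115025896). That was the only region at Itga2. Itga1 had a second, 97.7 kb upstream, with scores of 93 and 109, and 4 peaks in replicate 2 against 2 in replicate 1. Itga10, a cartilage collagen receptor gene, had none.

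Among the receptors of RGD (Arg-Gly-Asp) sequences, Itga8 had 3 shared regions, all inside it, while Itgav and Itga5 had none. Itga8 encodes a mesenchymal receptor of nephronectin that is needed for kidney outgrowth. Its regions lay 80.1, 88.8 and 113 kb downstream of the start site, with scores of 60 and 146 (chr2:12221768-12221961), 159 and 243 (chr2:12212914-12213305) and 89 and 77 (chr2:12188464-12188841). Replicate 1 had 5 peaks and replicate 2 had 4 in that window. Itgav, whose alpha chain pairs with many beta chains, had no peak in either list and a nearest shared region 464 kb away. Itga5, the fibronectin receptor gene, had 2 peaks in replicate 1 alone (scores 53 and 166). Itga4, which binds fibronectin and the vascular adhesion protein Vcam1, had 2 shared regions, 39.9 and 53.4 kb upstream of its start, with low scores of 39 and 75 (chr2:79215483-79215641) and of 46 and 51 (chr2:79201914-79202130), and replicate 2 held 4 peaks there. Itga9 had 1 peak of replicate 2 alone (score 60).

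Of the 7 beta chains, 3 had a shared region. Itgb8, whose product pairs with the alpha v chain and releases active Tgf-beta, had 3 regions, from 3 peaks in replicate 1 and 4 in replicate 2. The strongest (chr12:119163755-119164116) scored 875 in replicate 1 and 452 in replicate 2. These values were at or above 98.6% and 95.2% of the scores of their lists. It lay inside the gene 1.12 kb from its lower end, which is the 3′ end, since Itgb8 is read from the minus strand, and 74.4 kb from its start site. Others lay 10.2 kb upstream of the start, with scores of 69 and 146 (chr12:119248388-119248598), and 16.5 kb beyond the 3′ end, with scores of 156 and 164 (chr12:119146210-119146392). Itgb5 held 1 region inside it, 41.1 kb from the start, with scores of 203 and 218 (chr16:33870602-33870979), and replicate 1 had 2 peaks there. The region credited to Itgb7, a beta chain of lymphocytes, lay 11.8 kb away, in or nearest to the retinoic acid receptor gene Rarg, with scores of 42 and 90. Itgb1, the partner of most alpha chains described here, Itgb3 of platelets and bone-resorbing cells, and Itgb4 of hemidesmosomes had no peak in either list, with nearest shared regions 357, 164 and 160 kb away. Itgb6, an epithelial partner of the alpha v chain, had 1 peak of replicate 1 alone (score 93).

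In all, 34 of the 41 regions had a listed gene as the gene they lay in or, outside genes, as the nearest, and 7 had another gene. On that assignment 19 of the 38 genes had a region, against 14.1% of all protein-coding genes, 11 cadherin and 8 integrin genes, since Itga2 and Itgb7 dropped out and Itga3 fell to 1. At least 3 regions lay at 6 of the 38 genes (Itga3, Cdh11, Itga11, Itga6, Itga8 and Itgb8), against 6.38% of all genes. Neither share of all genes was matched for length, and all 38 genes were longer than the median gene. The 100 kb limit left out a region 101 kb from Itga9 (scores 138 and 67) and 1 that was 109 kb from Cdh6 (101 and 108), and took in those at 93.5 kb from Itga2, 94.6 kb from Itga11 and 97.7 kb from Itga1.

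The regions at these genes were of ordinary strength. Their median score was 105 in replicate 1 (26 to 952) and 146 in replicate 2 (43 to 1045), beside medians of 107 and 127 over all 6834 shared regions. Cadherin regions had medians of 111.5 and 151 and reached 207 and 215 at most, and integrin regions had medians of 93 and 146. By the lower of its 2 scores, a region needed 316 to be among the highest 10% of all shared regions. The 4 of 41 that reached it (9.76%) all lay in windows of integrin genes, 3 in that of Itga3 and 1 in Itgb8. The 3 in the Itga3 window lay in or nearest to Ppp1r9b or Pdk2. Replicate 2 scored higher at 31 of the 41 regions (75.6%), beside 58.9% of all shared regions. No source states that scores are on 1 scale in both lists, so a higher score in replicate 2 is a difference between the deposited values and not a measure of stronger binding. The Spearman correlation between the replicates' scores was 0.702 across the 41 regions and 0.717 across all. Those points come from the same libraries, and regions are not independent replicates. The median width was 251 bp in both cases.

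**Figure D4:**
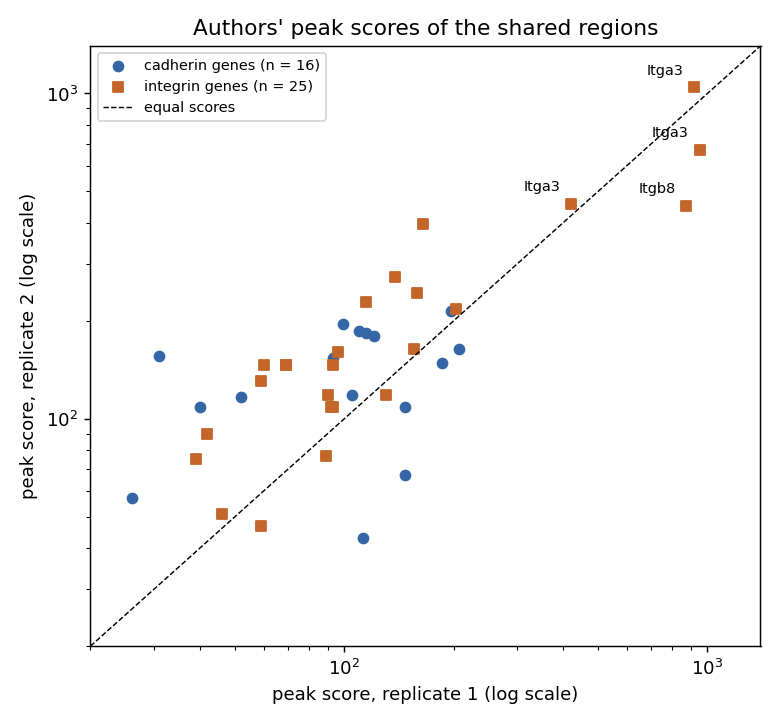
Peak score of each of the 41 shared regions in replicate 1 and replicate 2, on log axes, for cadherin (blue circles) and integrin (orange squares) genes; the region shared by Itga1 and Itga2 is plotted once. The 4 regions above 400 in both replicates stand apart from the rest. Of these, 1 lay in Itgb8, and 3 lay in the Itga3 window but in or nearest to Ppp1r9b or Pdk2. Of the 41 points, 31 lie above the line of equal scores.

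Peaks seen in 1 list alone had lower median scores than the shared regions. Replicate 1 had 14 of its 56 peaks at these genes unshared, with scores from 32 to 166 and a median of 83.5, and replicate 2 had 13 of its 54, with scores from 33 to 131 and a median of 60. They were the only peaks at 6 genes (Cdh16, Cdh22, Itga5 and Itgb6 in replicate 1, Cdh20 and Itga9 in replicate 2), against 12.5% of all protein-coding genes with unshared peaks only. No peak of either list lay at 11 of the 38, against 49.3% of all genes. These shares of all genes were not matched for length either.

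Other genes of cell adhesion were counted by the same rule in 8 lists, beside the same 38.1% of all protein-coding genes. Median gene length ran from 32.5 to 120 kb over the lists, against 17.2 kb over all genes. The shares were not matched for length. Ligands of integrins had a shared region at 19 of 27 genes (70.4%, 51.5 to 84.1%). They had 4.91 regions per Mb, against 2.65 over all genes. Frem1, a basement membrane protein of epithelial folds, had 6 regions, and fibronectin (Fn1) and the laminin chain Lama4 had 3 each. Intracellular integrin adaptors had one at 10 of 20, with 5 regions at Parva, which links integrins to actin, 4 at Tns3 and 3 at Ptk2, the focal adhesion kinase gene. The parvin count was 9 peaks in replicate 1 and 6 in replicate 2. Leukocyte and platelet integrins had one at 4 of 7 genes, 1 each at Itga2b, Itgae, Itgal and Itgam, and only the one at Itgae lay inside or nearest to the gene.

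Among cadherin relatives, the protocadherins had a region at 7 of 12 genes (Pcdh7 5, Pcdh10 3, Pcdh15 2), the large atypical cadherins at 5 of 12 (Fat4 5, Dchs2 3, Celsr2 1) and the desmosomal cadherins at 3 of 7. The 3 desmosomal genes, Dsc1, Dsc2 and Dsc3, are neighbours with 3, 3 and 2 regions in overlapping windows. The remaining classical cadherins had one at 3 of 4 (Cdh1 and Cdh24 2 each, Cdh26 1). Both regions at Cdh1, the E-cadherin gene, lay in or nearer to other genes, and 1 of them is the region inside Cdh3. Both regions at Cdh24 and the 1 at Celsr2 also lay in or nearer to other genes. Of the 4 remaining classical cadherins, only Cdh26 had a region inside or nearest to the gene. Catenins and their partners had one at 6 of 12 (Ctnna2 3, Jup 3, Ctnna3 2), and those at Jup were likewise in or nearer to other genes. Intervals of these shares overlapped widely, and none was tested. Regions per Mb were 4.88 for the remaining classical cadherins, 3.56 for desmosomal cadherins, 2.48 for protocadherins and 2.46 for large atypical cadherins. They were 1.78 for catenins and partners, 3.15 for integrin adaptors and 3.10 for leukocyte and platelet integrins.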

How the data were processed

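Per the submitters' processing notes, Trimmomatic 0.35, Bowtie2 2.2.6, MACS2 2.1.0.20150731 and bedtools were used with build mm10; their order, settings, the threshold of the peaks and the use of the input are not given in the sources. Per the labels, chromatin was fixed in 1% formaldehyde and read as 75 bp single-end reads. The authors deposited 1 peak list per ChIP replicate, with a whole-number score per peak and no read counts, so depth is unknown, a site under their threshold is not listed, and nothing states that scores are comparable between the lists. Ranks were taken within a list, while the lower of the 2 scores and the counts of regions with the higher score in replicate 2 set the lists side by side as deposited. The lowest score was 20 in both lists and the highest 1637 and 1638.

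The 38 genes and the 8 lists of related genes were chosen with earlier results of these data known, and the lists were written from general knowledge. All matched the RefSeq gene table (GRCm38.p6, the coordinates of mm10). Start sites and strand came from a RefSeq table of start windows, which held 26 of the 38 genes, and neither exons nor a genome sequence were used, so exon, intron and UTR were not assigned. Where windows of that table overlapped on opposite strands, 1892 of 1892 pairs were reverse complements. A shared region was placed by the midpoint of the longest overlap of its peaks. Densities used merged windows. Python 3.11.15, numpy 2.4.6, pandas 2.3.3 and scipy 1.17.1 were used. On simulated peaks the counts of 38 of 38 genes were recovered. The planted counts used the same window rule, and each shared peak had a single partner. That run checked the counting code only. It did not try the merging of several peaks or the nearest gene. The rule for named genes was to account for every listed gene, with the scores of each region where it had up to 3 and otherwise at least the 3 with the highest lower score and the closest, and to name the 3 genes of each related list with most regions, ties by symbol. Windows from 0 to 200 kb, 50% reciprocal overlap, higher score limits, the nearest gene and each replicate alone were tried as alternatives, and leaving out Itga3 was added after its values were seen.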

Additional observations from a re-analysis of the deposited data

How the results depend on the processing

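Of 513 values under alternatives, 58 were totals over the 38 genes, of which 47 stayed within the limits set (1.5 times for a count, 1 SD between replicates otherwise) and 11 moved. Of the other 455 values, counts at single genes, 83 moved, at 30 genes. Many of these 455 could not move. Leaving out Itga3 leaves the count at every other gene as it was. A gene without a shared region also stays without one under smaller windows, stricter overlap, higher score limits or the nearest gene. The share that stayed is therefore not a measure of how stable the counts are. With peaks of a score of at least 100, 13 genes had a shared region and 19 regions were left, with median scores of 159 and 215. The number of regions was 18 in gene bodies alone, 21 with a window of 10 kb and 65 with 200 kb. The density relative to all genes was 0.824 in gene bodies, 0.840 with 10 kb and 0.885 without Itga3, against 1.02. The same ratio ranged from 0.913 to 1.07 over the single replicates, in which 23 and 25 genes had a peak. By the nearest gene it was 0.846. There the windows stayed the same and only the listed genes lost the regions of other genes, so the ratio could not rise. Cadherin genes stayed below and integrin genes above the density of all genes in each of these settings. The range was 0.519 to 0.771 times for cadherins and 1.28 to 1.92 times for integrins. The 1.28 is by the nearest gene, with the same limit, and the next lowest was 1.42, without Itga3. With 50% reciprocal overlap Cdh4, Cdh5, Cdh8 and Itga2 had no region, and with scores of at least 50 in both lists Cdh2, Cdh5, Itga4 and Itgb7 had none. In single lists the count at a gene with shared regions was over 1.5 times as high at Cdh3, Cdh4, Cdh6, Itga8 and Itgb5 in replicate 1 and at Cdh2, Itga1 and Itga4 in replicate 2. The causes of these moves were not tested beyond the smaller windows and fewer peaks that the settings bring. No paired analysis was possible because only the Isl1 ChIP group has peak lists, so no test between groups was run.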
